A study of Mus musculus with 48 samples.

Results

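The 31 genes described here mark the identity and the signalling machinery of medium spiny neurons, the GABA-releasing projection neurons of the striatum. They were chosen as a list of gene symbols and looked up in the first column of the count table, where all 31 were found among 24060 rows. Each of the 31 passed the filter on low counts in each of the 17 comparisons below. The study used RiboTag, in which a viral vector makes striatal astrocytes carry an epitope-tagged copy of the ribosomal protein Rpl22 and tagged ribosomes are then precipitated with their RNA. From each mouse RNA was taken from the cleared striatal lysate, called input, and from the precipitate, called IP. Together there were 48 RNA-seq libraries, described in the series text as coming from 24 adult mice, in 3 experiments and 12 groups of 4. Input thus holds RNA of all cells of the tissue, and IP is enriched for that of astrocytes.

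In the first experiment, C57 mice received vehicle or MPTP, a toxin of dopamine neurons, which the labels give as 20 mg/kg in 4 doses delivered by striatal microinjection. In the second, SAPAP3 knockout mice, which lack a postsynaptic scaffold protein encoded by Dlgap3 and are used as a model of obsessive-compulsive disorder, were set beside wild-type littermates. In the third, all mice carried R6/2, a transgene with an expanded huntingtin fragment that models Huntington's disease, and received either a control cargo or hM4Di, an engineered Gi-coupled receptor. The labels of these groups do not say when, or whether, the receptor's ligand was given, and they give neither the promoter of the tagged Rpl22 nor the age of the mice beyond adult. Rpl22 was tagged for 3 weeks in every group. The third experiment has no group without R6/2, and the titles carry a different number for each experiment, whose meaning the labels do not give. A comparison of R6/2 with the vehicle or wild-type mice is therefore also a comparison of experiments, and genotype and experiment cannot be told apart. The title of wild-type replicate 3 names 2 numbers joined by a point, and whether it stands for 1 mouse or a pool is not given. For MPTP replicate 2 the input and IP titles name different animals, and these libraries are treated below as 1 animal.

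Medium spiny neurons make up most of the neurons of the striatum and receive dopamine from the midbrain and glutamate from the cortex. In these cells dopamine and adenosine receptors act through G proteins, among them the olfactory-type one, and adenylyl cyclase to set the level of cAMP. Phosphodiesterases break cAMP and cGMP down, and DARPP-32 turns the signal into inhibition of a phosphatase. Calcium from internal stores and calcium-binding proteins form a second arm, and a small set of transcription factors keeps the cells' identity. Lower levels of many of these RNAs are a known feature of Huntington's disease and of its mouse models.

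Input libraries held 21.9 to 39.0 M counted reads and IP libraries 34.3 to 61.5 M. The lowest count of any member in any library was 179, for Ryr1. In each experiment all 12 astrocyte markers were higher in IP than in input, with median log2 fold changes of 2.60, 2.30 and 2.46 in the MPTP, SAPAP3 and R6/2 experiments, and all 11 microglial markers were lower. Dlgap3 stood at 160 to 195 CPM (counts per M reads after scaling) in the 4 knockout inputs and at 368 to 475 CPM in the 4 wild-type inputs. One library pair stood apart. In the wild-type replicate 1 input, 10 cortical excitatory neuron markers had a mean level of 3.09 on the log2(CPM + 1) scale, against 5.11 to 5.48 in the other 7 inputs of that experiment. The same library had a mean of 8.76 over the 31 members, against 8 to 8.25 in those 7. In the 8 inputs of the R6/2 experiment and the 8 of the MPTP experiment the cortical markers lay between 2.21 and 3.18. The main counts and medians that rest on wild-type mice are therefore also given without that replicate, though not the counts of libraries that do not overlap.

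As a look at the members' start sites, promoter windows from RefSeq (build GRCm38.p6, 250 bases before to 50 bases after the start) were searched on both strands for the TATA box word TATAAA, the CCAAT box, the GC box core GGGCGG and the full cAMP response element TGACGTCA. The windows of the 2 most and the 2 least lowered members in R6/2 input, among the called members with a single RefSeq entry, are printed 5′ to 3′ on the gene's strand. Capitals mark the matches, which in these windows do not overlap one another.
Ryr1, chr7:29125102-29125401, minus strand: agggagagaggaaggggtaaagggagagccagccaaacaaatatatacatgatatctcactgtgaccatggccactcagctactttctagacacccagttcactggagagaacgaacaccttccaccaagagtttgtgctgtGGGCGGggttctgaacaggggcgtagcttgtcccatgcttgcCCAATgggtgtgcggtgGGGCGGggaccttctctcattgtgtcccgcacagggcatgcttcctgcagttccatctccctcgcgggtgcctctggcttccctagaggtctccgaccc
Scn4b, chr9:45138374-45138673, plus strand: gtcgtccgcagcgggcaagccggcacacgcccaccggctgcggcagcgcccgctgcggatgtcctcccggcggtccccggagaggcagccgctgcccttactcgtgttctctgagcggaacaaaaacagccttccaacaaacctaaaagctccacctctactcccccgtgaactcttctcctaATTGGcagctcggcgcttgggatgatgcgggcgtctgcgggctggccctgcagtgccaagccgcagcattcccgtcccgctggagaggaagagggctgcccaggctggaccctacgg
Meis2, chr2:116064570-116064869, minus strand: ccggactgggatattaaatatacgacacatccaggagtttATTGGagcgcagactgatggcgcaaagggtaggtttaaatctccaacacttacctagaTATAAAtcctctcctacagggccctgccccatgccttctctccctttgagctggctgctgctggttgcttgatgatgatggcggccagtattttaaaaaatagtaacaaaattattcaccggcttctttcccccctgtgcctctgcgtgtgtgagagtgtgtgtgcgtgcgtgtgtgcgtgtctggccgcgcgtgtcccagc
Bcl11b, chr12:108003365-108003664, minus strand: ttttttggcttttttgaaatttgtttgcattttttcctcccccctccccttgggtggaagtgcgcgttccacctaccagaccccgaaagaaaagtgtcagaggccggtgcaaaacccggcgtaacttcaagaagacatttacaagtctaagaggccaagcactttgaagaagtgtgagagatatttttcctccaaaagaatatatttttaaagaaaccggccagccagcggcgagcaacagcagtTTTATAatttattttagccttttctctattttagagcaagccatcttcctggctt
The Ryr1 window held 1 CCAAT and 2 GGGCGG matches and the Scn4b window 1 CCAAT match, read as ATTGG on the opposite strand. The Meis2 window held 1 TATAAA and 1 CCAAT match, and the Bcl11b window 1 TATAAA match. RefSeq windows were found for 22 of the 31 members, 50 windows in all. Of these 50, 12% held TATAAA, 32% CCAAT, 36% GGGCGG and 0% TGACGTCA. Among all 32851 windows the shares were 13.6%, 37.4%, 35.7% and 1.79%. The first 3 shares lay close to those of windows at large. The members' windows had a median GC content of 56%, against 52.7% overall. A match is only a run of letters, and 4 windows are too few to relate a word to the size of a difference.

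Per length, the members spanned a wide range in healthy striatum. In vehicle input the most abundant, in FPKM (fragments scaled to gene length and library size), were Hpca at 859, which encodes the calcium sensor hippocalcin, and Ppp1r1b at 846, which encodes DARPP-32. Pde1b followed at 504, Scn4b at 384, Adcy5 at 362 and Pde10a at 343. Ryr1 was the lowest at 5 FPKM, below Foxp2 at 20.7. In R6/2 input with control cargo Hpca at 319 FPKM and Ppp1r1b at 289 FPKM still led. Scn4b, however, stood at 56.7 FPKM, 18th of the 31 in place of the 4th. Gng7 was 6th at 146 FPKM, against 15th at 147 FPKM in vehicle input and 10th at 148 FPKM in wild-type input. Its rank thus differed while its mean level was nearly the same. The wild-type mean rested on replicate 1 at 220.6 FPKM, with the other wild-type inputs at 120.8, 127.4 and 124.1 FPKM. The R6/2 control cargo inputs were at 140.5 to 150.9 FPKM. After TMM scaling the means were 441 CPM in R6/2, 482 CPM in vehicle and 492 CPM in wild type.

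In input RNA the members were lower in R6/2 mice with control cargo than in the vehicle and wild-type mice. Set against the mean of those 2 groups, 28 of 31 members were lower and none higher, at an adjusted p below 0.05 (edgeR quasi-likelihood test, Benjamini-Hochberg over all genes). Of all 15751 genes tested 29.7% were called lower and 59.9% in either direction, so that the members' 28 stand against a background in which a large part of the transcriptome differs between these experiments. The median log2 fold change of the members was -0.95, and that of all genes tested was 0.01. In the other comparisons below the median of all genes lay between -0.03 and 0.01. It was -0.49 for the 7 transcription factors, -1.08 for the 8 genes of cAMP and DARPP-32 signalling, -1.43 for the 4 G protein regulators and receptor, -1.19 for the 6 calcium and channel genes and -0.80 for the 6 remaining genes. The 3 members not called were Foxp2 (0.15), Dlx6 (-0.18) and Gng7 (-0.15). The plot of the members in the 3 control groups shows each R6/2 comparison beside the difference between the healthy groups themselves. In bulk RNA, fewer medium spiny neurons and less RNA per neuron cannot be told apart.

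**Figure D1:**
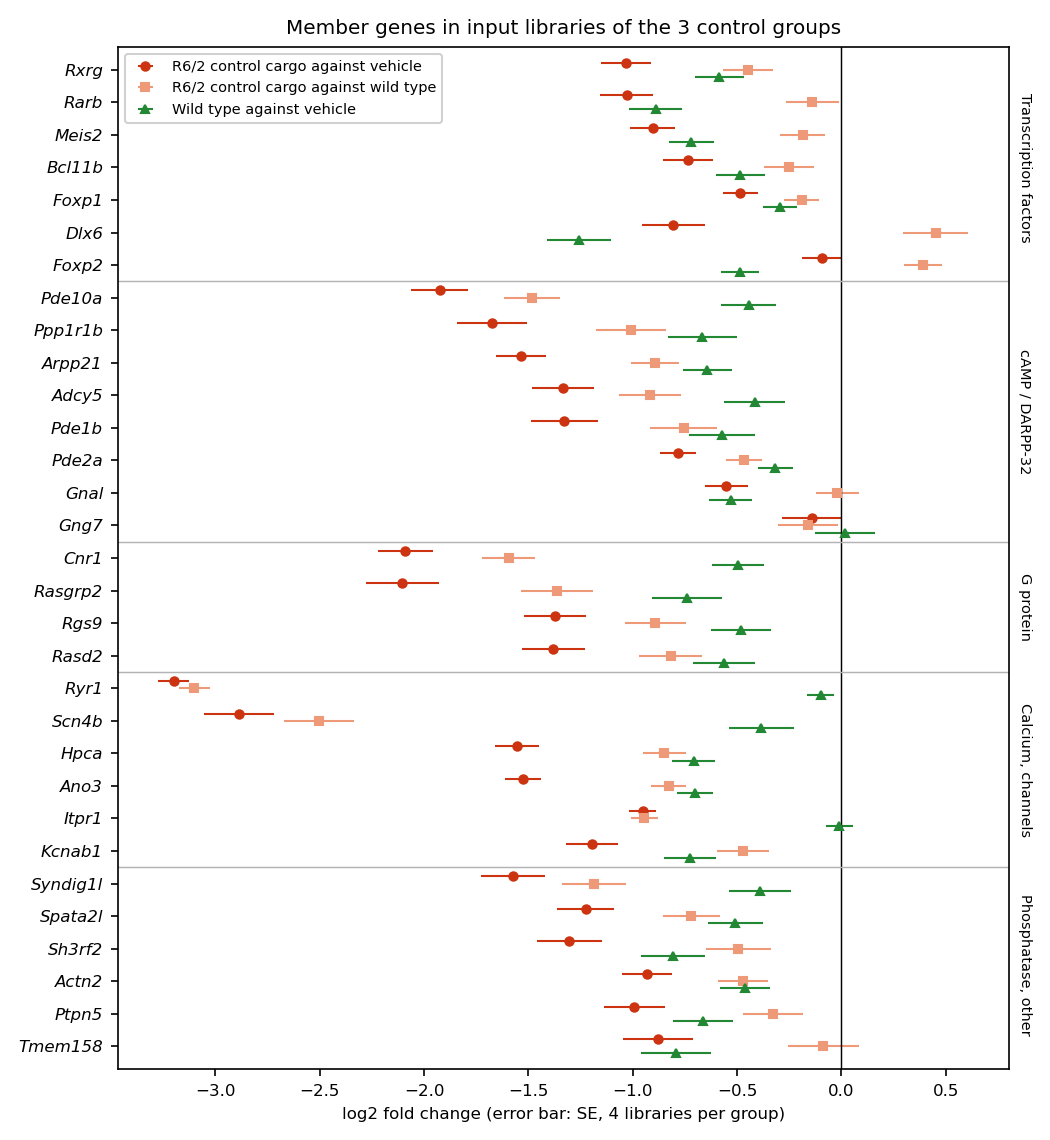
Log2 fold change (x axis, points with SE bars, 4 input libraries per group) of the 31 members, grouped by role, for R6/2 with control cargo against vehicle, R6/2 with control cargo against wild type, and wild type against vehicle. Ryr1 and Scn4b lie farthest to the left for both R6/2 comparisons, while Foxp2 and Dlx6 lie to the right of 0 against wild type; the 3 comparisons share their libraries in pairs.

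Calcium and channel genes held the members with the largest differences, and all 6 were called. Ryr1 encodes a ryanodine receptor that releases calcium from the endoplasmic reticulum. Its level was 72.7, 70.4, 67.9 and 77.4 CPM in the vehicle inputs, 75.0, 70.0, 62.3 and 64.2 CPM in the wild-type inputs, and 7.16, 8.02, 8.23 and 8.24 CPM in the R6/2 control cargo inputs. The R6/2 libraries were all far below the 8 others, with a log2 fold change of -3.15 ± 0.0705 (SE, 4 against 8 libraries; edgeR adjusted p 1.15e-11), which is 8.88-fold lower. Scn4b, an auxiliary subunit of voltage-gated sodium channels, was at 1590, 1491, 1548 and 1492 CPM in vehicle, 1702, 1043, 1001 and 978 CPM in wild type and 210, 171, 208 and 245 CPM in R6/2. These groups did not overlap either, and the log2 fold change was -2.70 ± 0.157 (edgeR adjusted p 4.51e-08). Itpr1, the inositol trisphosphate receptor, was at 2105 to 2224 CPM in vehicle, 2037 to 2378 CPM in wild type and 1021 to 1175 CPM in R6/2. It differed by -0.95 ± 0.0577, and the healthy groups were close to each other for this gene. Ano3, of the anoctamin family, was at 943 to 1015 CPM in vehicle, 524 to 701 CPM in wild type and 311 to 373 CPM in R6/2. Here the 3 groups formed 3 separate levels, with wild type between the others. Hpca (-1.20) and Kcnab1 (-0.83), a potassium channel beta subunit, were the other called genes of the set.

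**Figure D2:**
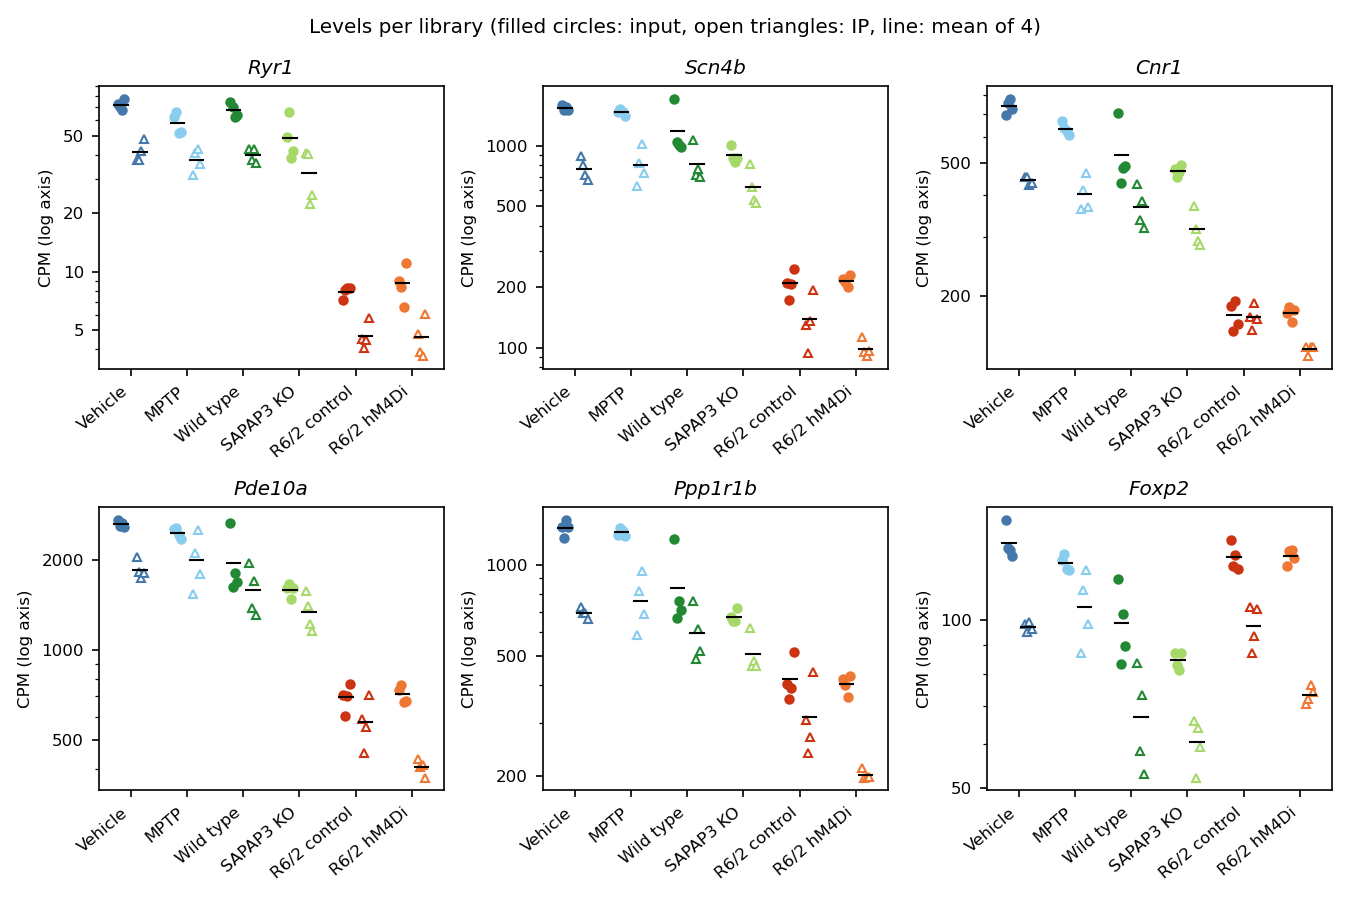
Level of 6 members in each of the 48 libraries (CPM, log axis), by group, with filled circles for input, open triangles for IP and lines at the mean of 4. Ryr1, Scn4b, Cnr1 and Pde10a in all 8 R6/2 inputs lie below all 16 other inputs, whereas Foxp2 in R6/2 inputs lies at 123 to 139 CPM, inside the range of the others.

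Among the G protein regulators all 4 were called. Cnr1, the cannabinoid receptor, was at 699, 757, 779 and 725 CPM in vehicle, 706, 436, 483 and 490 CPM in wild type and 186, 157, 193 and 165 CPM in R6/2. The R6/2 inputs were the lowest 4 of the 12, and the high wild-type value was replicate 1. The log2 fold change was -1.84 ± 0.119 (edgeR adjusted p 9.43e-08). Rasgrp2, a calcium-regulated exchange factor for Rap GTPases, was at 198 to 211 CPM in vehicle, 99.3 to 178 CPM in wild type and 35.8 to 55.4 CPM in R6/2, a difference of -1.73 ± 0.160. Rgs9, which speeds GTP hydrolysis by G proteins, differed by -1.13, and Rasd2, the striatal GTPase Rhes, by -1.10. For both, the 4 R6/2 inputs lay below all 8 others, at 209 to 319 CPM for Rgs9 and 299.6 to 367 CPM for Rasd2.

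In the cAMP and DARPP-32 pathway 7 of 8 members were called. Pde10a, the phosphodiesterase enriched in these neurons, was at 2702, 2585, 2644 and 2564 CPM in vehicle, 2654, 1626, 1805 and 1685 CPM in wild type and 710, 605, 701 and 770 CPM in R6/2. Every R6/2 input was below every other input, and the log2 fold change was -1.70 ± 0.124 (edgeR adjusted p 2.42e-07). Ppp1r1b was at 1336, 1223, 1400 and 1331 CPM in vehicle, 1219, 667, 758 and 711 CPM in wild type and 404, 361, 391 and 515 CPM in R6/2. Its log2 fold change was -1.34 ± 0.152, with R6/2 again below both groups. Arpp21, another cAMP-regulated phosphoprotein, differed by -1.21 ± 0.106 and Adcy5, the main striatal adenylyl cyclase, by -1.12 ± 0.134. Pde1b (-1.04) and Pde2a (-0.63) were also lower. The subunits of the receptor-coupled G protein differed least. Gnal, the olfactory-type alpha subunit, differed by -0.29 ± 0.0911, and Gng7, the gamma subunit that pairs with it, stood at 418 to 461 CPM in R6/2, 466 to 506 CPM in vehicle and 404 to 712 CPM in wild type.

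The transcription factors differed less and less uniformly. Rxrg, a retinoid X receptor, was at 134 to 145 CPM in vehicle, 75.7 to 126 CPM in wild type and 65.1 to 72.2 CPM in R6/2, with a log2 fold change of -0.74 ± 0.105. Rarb, a retinoic acid receptor, was at 211 to 227 CPM in vehicle, 91.7 to 161 CPM in wild type and 101.2 to 113.6 CPM in R6/2, so that R6/2 overlapped wild type. Meis2, a homeodomain factor (-0.55 ± 0.0942), Bcl11b, a zinc finger factor also known as CTIP2 (-0.49 ± 0.105), and the forkhead factor Foxp1 (-0.34 ± 0.0733) were called, and each of the 3 overlapped wild type as well. The forkhead gene Foxp2 was not called. It was at 139, 125, 130 and 123 CPM in R6/2, 151, 134, 134 and 130 CPM in vehicle and 118, 83.4, 102 and 90.0 CPM in wild type. Its R6/2 mean of 129 CPM was below that of vehicle (137 CPM) and above that of wild type (98.6 CPM). Dlx6, a homeobox gene, stood between the healthy groups, at 13.7 to 16.4 CPM in R6/2 against 26.1 to 29.4 CPM in vehicle and 7.89 to 15.98 CPM in wild type.

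All 6 remaining members were called. Syndig1l, a membrane protein gene enriched in striatum, was at 174 to 188 CPM in vehicle, 113 to 205 CPM in wild type and 56.0 to 66.2 CPM in R6/2, a log2 fold change of -1.38 ± 0.140. Spata2l differed by -0.97, Sh3rf2 by -0.90, the actin crosslinker Actn2 by -0.70, the striatum-enriched tyrosine phosphatase gene Ptpn5 by -0.66 and Tmem158 by -0.48. Spata2l, Actn2 and Syndig1l did not overlap with either healthy group, whereas Ptpn5, Sh3rf2 and Tmem158 overlapped wild type.

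Which healthy group served as reference changed the size of the difference. Against vehicle alone, 29 members were called lower (30% of genes) with a median of -1.23. Against wild type alone 21 were lower and 2 higher (28% of genes lower) with a median of -0.72. Against both healthy groups but without wild-type replicate 1, 28 members were lower, with a median of -0.88, where 63% of 15934 genes were called in either direction. Against wild type alone without replicate 1, a comparison added after the data were seen, 21 were lower and 2 higher (29.4% of genes lower) and the median was -0.50. The 2 higher members against wild type were Foxp2 (0.39 ± 0.0924, edgeR adjusted p 0.00288) and Dlx6 (0.45 ± 0.156, 0.0247). In that reduced comparison Rarb (0.04), Gnal (0.10) and Tmem158 (0.18) changed sign and did not pass the test, while Ryr1 (-3.05), Scn4b (-2.27), Cnr1 (-1.42) and Pde10a (-1.29) kept most of their difference. By role, the transcription factors had medians of -0.81 against vehicle, -0.19 against wild type and -0.05 against wild type without replicate 1. The calcium and channel genes had -1.54, -0.90 and -0.82. These comparisons share the R6/2 libraries. In terms of single libraries, 20 members lay below all 8 vehicle and wild-type inputs in all 4 R6/2 control cargo inputs, as did 15.2% of 16607 genes. With both arms of each experiment, 18 members lay lower in all 8 R6/2 inputs than in all 16 others, against 8.63% of genes.

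The 2 healthy groups also differed from each other in these genes. Wild-type input was lower than vehicle input for 27 of 31 members, against 22.5% of 15751 genes, with a median of -0.53. Without wild-type replicate 1 it was lower for 30, with a median of -0.69. There 49.2% of 15934 genes were called in either direction, against 46.3% of 15751 with all libraries. The leading members were Ano3 (-0.70 ± 0.0847), Dlx6 (-1.26 ± 0.153) and Rarb (-0.89 ± 0.127), with edgeR adjusted p of 3.96e-05, 4.16e-05 and 1.29e-04. Ryr1 (-0.10), Itpr1 (-0.01), Gng7 (0.02) and Scn4b (-0.38) were not called. In 15 members all 4 wild-type inputs lay below all 4 vehicle inputs, against 19% of 16607 genes. In the same comparison 9 of 10 cortical excitatory markers were higher, with a median of 3.29. Slc17a7, the vesicular glutamate transporter gene of cortical neurons, ranged from 54.7 CPM in wild-type replicate 1 to 535 CPM in the other wild-type inputs and was at 23.0 to 35.6 CPM in vehicle inputs. In wild-type replicate 1 the list means were close to vehicle. They were 3.09 for the cortical markers and 8.76 for the members, against 2.65 to 2.80 and 8.82 to 8.90. Single members were not all close. The highest wild-type inputs were 701 CPM for Ano3, 16 CPM for Dlx6 and 161 CPM for Rarb. The lowest vehicle inputs were 943, 26.1 and 211 CPM. Scn4b and Gng7 in replicate 1 lay above vehicle, at 1700 and 711 CPM against at most 1590 and 506 CPM. The part of these markers in the difference between the healthy groups was not tested.

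**Figure D3:**
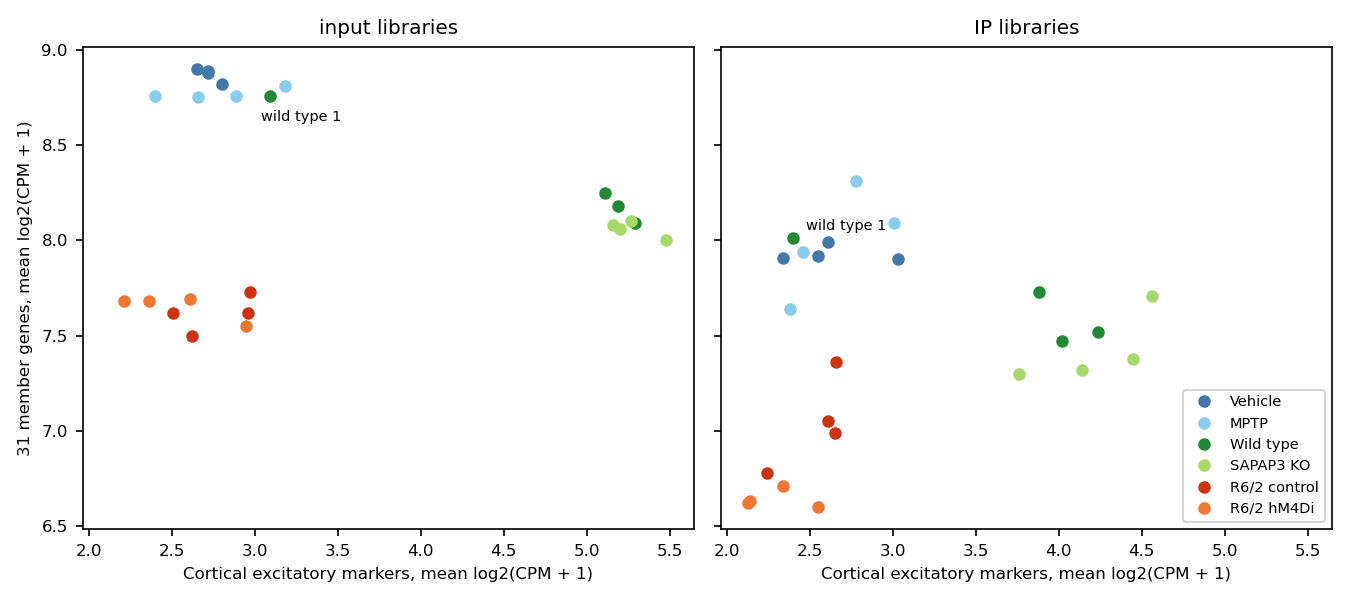
Mean log2(CPM + 1) of the 31 members (y axis) against that of 10 cortical excitatory markers (x axis), 1 point per library, for inputs on the left and IPs on the right. The 7 SAPAP3-experiment inputs other than wild-type replicate 1 lie at 5.11 to 5.48 on the x axis and 8 to 8.25 on the y axis, while all R6/2 inputs lie at 7.50 to 7.73 with cortical markers of 2.21 to 2.97.

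Other lists differed in R6/2 input as well. Of 12 pan-neuronal markers 8 were lower and 1 higher with a median of -0.52, all 11 interneuron markers were lower (median -1.01), all 11 microglial markers were lower (-1.21), and of 12 astrocyte markers 9 were lower and 2 higher (-0.29). Their part in the members' difference was not tested. Of 12 tested markers of the direct and indirect pathway neurons 8 were lower and 2 higher, led by Penk (-1.92), the enkephalin precursor of indirect pathway neurons, Drd2 (-1.31) and Gpr6 (-1.32). The 2 higher ones were Isl1 (0.81) and Eya1 (0.74), and Tac1 (0.16) and Sp9 (0.19) did not pass. Against wild type alone without replicate 1 this list had 6 lower and 4 higher, with a median of -0.21. Of 29 further genes of cAMP signalling, 18 were lower and 5 higher with a median of -0.23. Among them the calcineurin subunit genes Ppp3ca (-1.03) and Ppp3r1 (-0.74) and the regulator of G protein signalling partner Rgs7bp (-0.91) had the smallest p-values. The median of these 29 genes was nearer to 0 than that of the members, which was -0.95. How broadly the genes are expressed was not measured, and members and lists were chosen with earlier results of these data known.

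In the IP libraries the difference was of the same direction and smaller. In R6/2 with control cargo 23 of 31 members were lower and 1 higher than in the vehicle and wild-type IPs, against 25.9% and 24.7% of 15398 genes (50.6% in either direction), with a median of -0.64. Ryr1 was at 37.6, 37.7, 41.6 and 47.9 CPM in vehicle IPs, 42.6, 37.4, 43.0 and 36.3 CPM in wild-type IPs and 4.50, 4.05, 4.44 and 5.79 CPM in R6/2 IPs. Its log2 fold change there, -3.08 ± 0.115, was close to that in input. Without wild-type replicate 1 again 23 members were lower, with a median of -0.54, where 50.8% of 15516 genes were called in either direction. Scn4b (-2.49), Pde10a (-1.55), Rasgrp2 (-1.38), Syndig1l (-1.27) and Cnr1 (-1.20) followed. Foxp2 was the member called higher, at 0.30 ± 0.104 (edgeR adjusted p 0.029), and its 4 R6/2 IPs at 87.1 to 106 CPM overlapped the vehicle IPs at 95.2 to 99.1 CPM and lay above the wild-type IPs at 53.0 to 83.7 CPM. Against vehicle alone 24 members were lower (23.8% of genes), and against wild type alone 18 were lower and 2 higher (23.9% lower). Without wild-type replicate 1, 17 were lower and 3 higher (23.5% lower), the 3 being Foxp2 (0.69), Dlx6 (0.53) and Meis2 (0.24). All 4 R6/2 control cargo IPs lay below all 8 healthy IPs for 14 members, against 13.7% of genes. Among the healthy groups, 8 members were lower in wild-type than in vehicle IPs (11.9% of genes; median -0.23), led by Foxp2 (-0.53), Rarb (-0.50) and Meis2 (-0.39). That count ranged from 2, without vehicle replicate 3, to 15, without wild-type replicate 1. It was 3 to 5 without vehicle replicate 1, 2 or 4, wild-type replicate 2 or 4, or R6/2 control cargo replicate 1 or 3. Over the fits with 1 replicate left out 1816 to 4000 genes were called in either direction, against 3497 with all libraries.

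Whether the split between the fractions differed in R6/2 was tested directly. The IP minus input difference was higher in R6/2 with control cargo for 2 members, with a median over the 31 of 0.20. Of 16318 genes 4.58% were called higher and 10.3% lower. A count of 2 among 31 is near the share called higher, and it is not read as a result about the members as a set. Cnr1 differed by 0.60 ± 0.140 (edgeR adjusted p 0.00503). Its R6/2 IPs at 158 to 190 CPM overlapped the R6/2 inputs at 157 to 193 CPM, while in vehicle the IPs were at 431 to 454 CPM and the inputs at 699 to 779 CPM. Meis2 differed by 0.47 ± 0.129 (edgeR adjusted p 0.0165), and Ano3, the next by p, by 0.37 ± 0.139 (0.0798), which did not pass; it passed with DESeq2 (0.40, adjusted p 0.0367) and with the animal as a replicate block (0.36, 0.00428). Oligodendrocyte markers moved the other way, with 10 of 10 lower and a median of -0.97, and their part was not tested. The count of members was 1 without R6/2 control cargo replicate 1 or 4, and 4 without wild-type replicate 1 (with Ano3 at 0.38 then passing). Over the fits with 1 replicate left out 1461 to 3019 genes were called in either direction, against 2427 with all libraries. The count of members was 13 with the animal as a replicate block, where 25.5% of 16318 genes were called in either direction against 14.9% without the block.

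Within the R6/2 experiment, members were lower in the IPs of mice with hM4Di. There 17 of 31 members were lower with hM4Di than with control cargo and none higher, against 5.63% of 15159 genes called lower and 9.06% higher. The median was -0.43, and all 31 estimates were below 0. By role, 4 of 7 transcription factors, 5 of 8 cAMP genes, 1 of 4 G protein genes, 4 of 6 calcium and channel genes and 3 of 6 others were called. In input no member was called by edgeR, 3 had an unadjusted p below 0.05, and the median was 0.03. DESeq2 also called no member there. Rxrg was the 1 member whose hM4Di inputs, at 73.7 to 82.9 CPM, all lay above the control cargo inputs, at 65.1 to 72.2 CPM, against 2.42% of 16607 genes. By edgeR 0.0198% of 15168 genes were called there, and 1163 had an unadjusted p below 0.05.

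**Figure D4:**
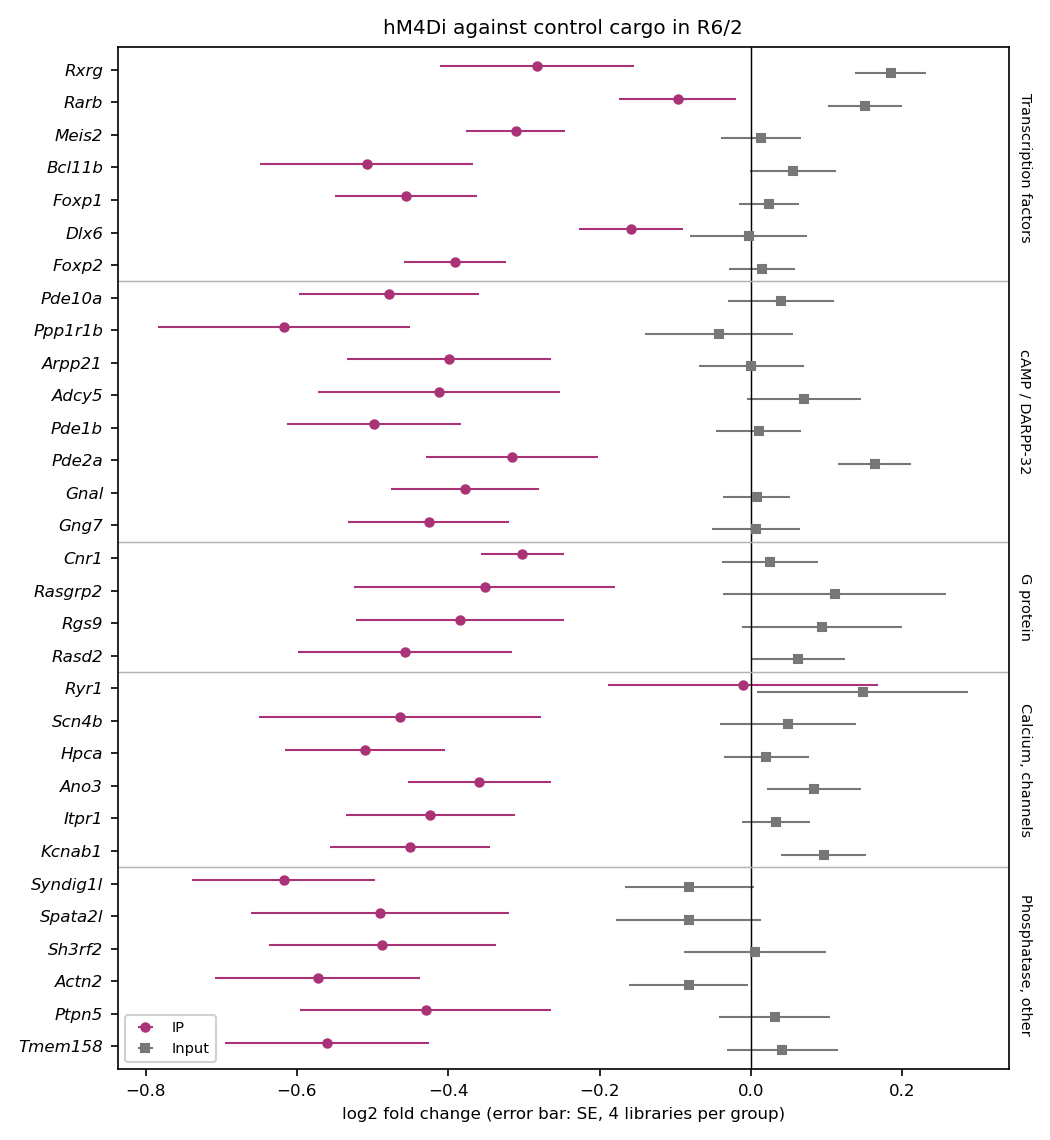
Log2 fold change (x axis, points with SE bars, 4 libraries per group) of hM4Di against control cargo in R6/2 mice for the 31 members, in IP and in input. All IP estimates lie below 0, from -0.62 to -0.01, while the input estimates lie between -0.08 and 0.18.

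Foxp2 had the smallest p-value, at 70.8, 72.3, 76.6 and 74.4 CPM with hM4Di and 106, 87.1, 93.8 and 104 CPM with control cargo. The groups did not overlap and the log2 fold change was -0.39 ± 0.0672 (edgeR adjusted p 0.00959). Cnr1 was at 140, 132, 141 and 141 CPM against 173, 158, 190 and 170 CPM (-0.30 ± 0.0549; adjusted p 0.0115). Syndig1l was at 18.0, 16.9, 12.6 and 15.3 CPM against 23.9, 20.7, 25.1 and 27.7 CPM (-0.62 ± 0.121; 0.0143). For these 2 genes too every hM4Di library was below every control cargo library. Foxp1 was at 188, 177, 185 and 168 CPM against 249, 216, 235 and 299 CPM (-0.46 ± 0.0939; 0.0168). Hpca was at 224, 190, 188 and 212 CPM against 291, 248, 282 and 356 CPM (-0.51 ± 0.106; 0.017). Meis2 was at 191, 170, 185 and 183 CPM against 231, 214, 215 and 256 CPM (-0.31 ± 0.0652; 0.0177). The same separation held for these 3. Ppp1r1b was at 213, 198, 199 and 198 CPM against 306, 239, 269 and 441 CPM, with the control cargo libraries more spread than the hM4Di ones, and differed by -0.62 ± 0.166 (edgeR adjusted p 0.0393). Ryr1, the most lowered member in R6/2, did not differ detectably here, at 3.69 to 6.06 CPM against 4.05 to 5.79 CPM (-0.01 ± 0.179). In all, 21 members did not overlap between the groups, against 11.3% of 16607 genes.

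The summed level of the 31 members was 5210 to 5650 CPM in the hM4Di IPs and 5950 to 9100 CPM in the control cargo IPs. In the inputs of the same mice it was 9880 to 10500 and 9240 to 10900 CPM. In IP 10 of 10 oligodendrocyte markers were higher with hM4Di, with a median of 0.84, and their summed level was 5090 to 7320 CPM against 2850 to 4010 CPM. Their input levels were 4450 to 5320 and 4330 to 5290 CPM. Of 12 pan-neuronal markers 3 were lower in IP (median -0.19), and of 12 astrocyte markers 2 were lower and 1 higher (-0.11), with a summed level of 19200 to 20600 CPM against 23400 to 26500 CPM. Of 9 tested cortical excitatory markers none was called, 8 had estimates below 0 and the median was -0.43. The part of these lists in the members' difference was not tested. Of 12 direct and indirect pathway markers 6 were lower, among them Adora2a (-0.63) and Gpr52 (-0.44), and of 29 other cAMP genes 8 were lower and 1 higher, the last being Pde4d (0.34). The count of 17 members depended on single libraries: it was 5, 6 or 7 without hM4Di replicate 2, 3 or 4, 6 without control cargo replicate 1 and 28 without control cargo replicate 2. Over the fits with 1 replicate left out 892 to 2130 genes were called in either direction, against 2227 with all libraries.

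The difference of the hM4Di effect between IP and input was called for 4 members, all lower, against 1.2% of 15880 genes. These were Foxp2 (-0.42 ± 0.0820, edgeR adjusted p 0.0172), Foxp1 (-0.49 ± 0.108, 0.0253), Kcnab1 (-0.56 ± 0.129, 0.0291) and Hpca (-0.54 ± 0.129, 0.034). The median over the 31 was -0.49. Since the IP and the input of a mouse share the animal, the fit with the animal as a replicate block was also made, and 29 members were called in it, while the genes called in either direction rose from 3.1% to 17.4% of 15880. Without the block the count was 14 and 9 without control cargo replicate 2 or 4, 1 without control cargo replicate 1 or 3 or hM4Di replicate 1, and 0 without hM4Di replicate 2 or 4. Over the fits with 1 replicate left out 91 to 433 genes were called in either direction, against 492 with all libraries. This comparison and those with vehicle and wild type share the R6/2 control cargo libraries.

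In all 3 experiments most members were less abundant in IP than in input, over both arms together. In the MPTP experiment 31 of 31 were lower (42.9% of 15862 genes; median -0.79), in the SAPAP3 experiment 30 (40% of 16059 genes; median -0.56) and in the R6/2 experiment 30 (41.1% of 15880 genes; median -0.71). They were depleted to different degrees. Arpp21 had log2 fold changes of -1.83, -1.44 and -1.62 in the 3 experiments, Tmem158 -1.65, -1.14 and -1.39, Syndig1l -1.48, -1.21 and -1.61 and Gng7 -1.42, -1.33 and -1.74. Itpr1, with -0.20, -0.27 and -0.20, and Pde10a, with -0.46, -0.28 and -0.55, were among the least depleted. Rasgrp2 was the 1 member not called in the SAPAP3 (-0.11) and the R6/2 (-0.30) data. These fits held the arm but not the animal, although IP and input of 1 mouse share the animal. They called 83.7%, 80.2% and 80.3% of genes in either direction in the MPTP, SAPAP3 and R6/2 experiments. With the animal as a replicate block the shares were 84.9%, 83.3% and 83.6%. By comparison, 12 of 12 astrocyte markers were higher in IP and 11 of 11 microglial markers lower, with medians between -3.85 and -5.04 for the latter, so that the members stand between them. Other neuronal lists varied. Of 11 interneuron markers 9, 8 and 9 were higher in IP, with medians of 1.78, 1.14 and 2.15. The pan-neuronal medians were 0.23, -0.24 and 0.14. The direct and indirect pathway markers were lower in IP, as the members were. Their mean log2(CPM + 1) was 6.81 in vehicle input and 6.1 in vehicle IP. It was 6.21 and 5.81 in wild type, and 5.96 and 5.49 in R6/2 with control cargo. The cortical excitatory markers stood at 4.67 and 3.64 in wild type, and at 2.72 and 2.63 in vehicle. Within the R6/2 experiment the arms differed for some members. Itpr1 was at 1130 ± 71.1 CPM (SD, n = 4) in input and 1160 ± 193 CPM in IP with control cargo, and at 1150 ± 25 and 854 ± 52.7 CPM with hM4Di. Cnr1 was at 175 ± 17.3 and 173 ± 13.5 CPM with control cargo, and at 178 ± 7.53 and 138 ± 4.39 CPM with hM4Di. With control cargo the fractions thus overlapped for both genes, and with hM4Di they did not. Without wild-type replicate 1 the SAPAP3 count was again 30, with a median of -0.56, where 80.5% of 16137 genes were called in either direction. In CPM, Arpp21 in vehicle mice was at 1621, 1681, 1814 and 1743 in input and at 491, 456, 480 and 473 in IP, whereas Itpr1 was at 2224, 2161, 2161 and 2105 in input and at 1897, 1861, 1898 and 1891 in IP. For both genes every IP library lay below every input library, at distances that differed by gene.

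**Figure D5:**
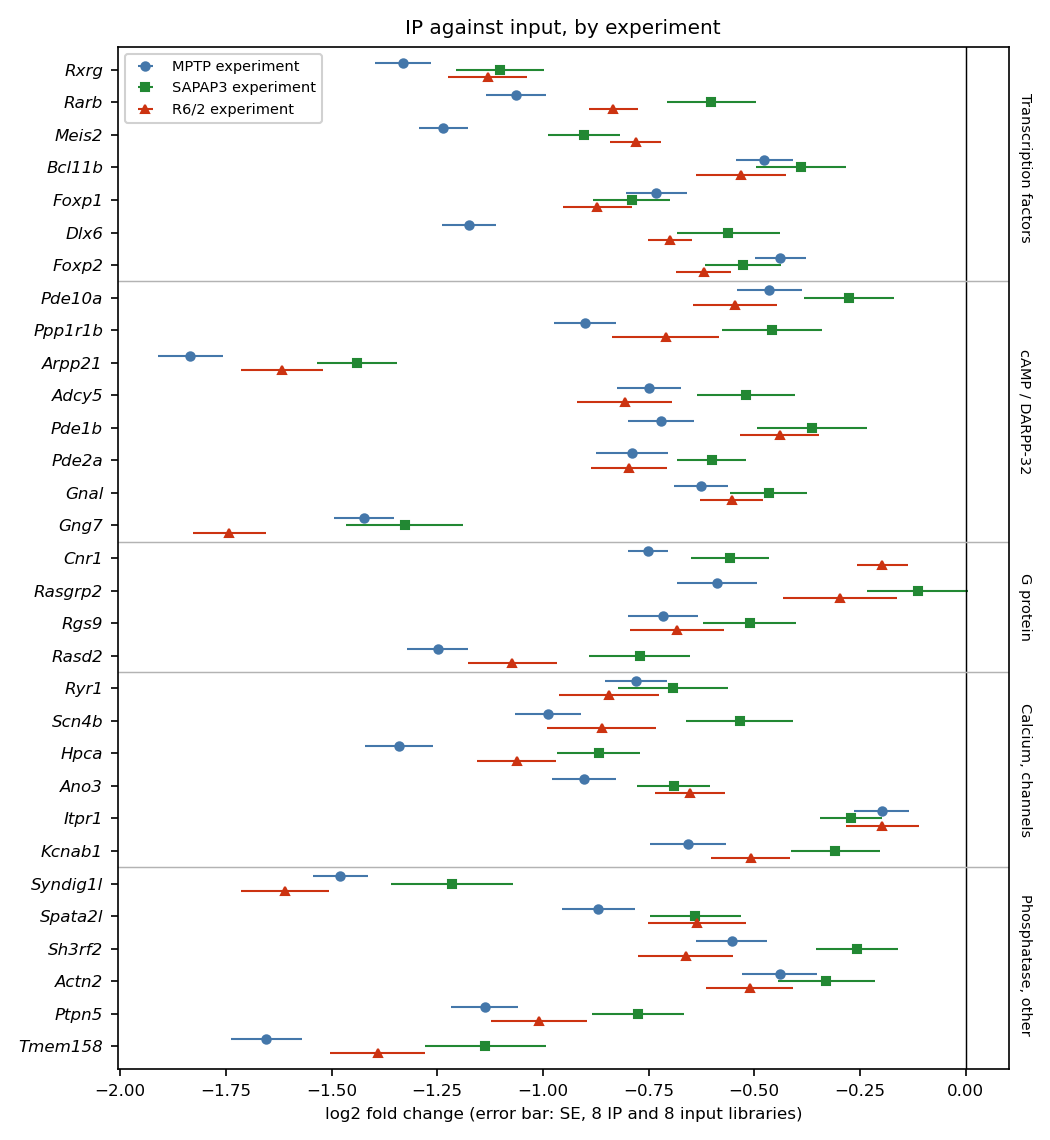
Log2 fold change of IP against input (x axis, points with SE bars, 8 IP and 8 input libraries) for the 31 members in the 3 experiments. All points lie left of 0, with Arpp21 at -1.83, -1.44 and -1.62 and Itpr1 at -0.20, -0.27 and -0.20 for the MPTP, SAPAP3 and R6/2 experiments.

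No member passed the test for an effect of MPTP. In input 30 of 31 members had estimates below 0, with a median of -0.08, and 12 had an unadjusted p below 0.05. By edgeR 0% of 15601 genes were called at adjusted p below 0.05, and 1289 had an unadjusted p below 0.05. The smallest p-values belonged to Cnr1 (-0.21 ± 0.0469), Foxp1 (-0.19 ± 0.0429) and Syndig1l (-0.18 ± 0.0420), with edgeR adjusted p of 0.485, 0.489 and 0.489. Cnr1 was at 667, 636, 624.5 and 608 CPM with MPTP and at 699, 757, 779 and 725 CPM with vehicle, so that the groups did not overlap. In 9 members, namely Pde10a, Foxp1, Adcy5, Itpr1, Ryr1, Ano3, Cnr1, Syndig1l and Kcnab1, all MPTP inputs lay below all vehicle inputs, against 2.85% of 16607 genes. DESeq2 called 68 genes in this comparison, with 5 members lower, among them Cnr1, Foxp1 and Syndig1l. In IP none was called, 25 estimates lay above 0 with a median of 0.11, and 2 had an unadjusted p below 0.05. That median was -0.01 without MPTP replicate 3 and 0.21 without MPTP replicate 1. There the MPTP libraries were widely spread, for example Pde10a at 1530, 2107, 2519 and 1788 CPM against 2043, 1817, 1731 and 1801 CPM with vehicle. Of 15069 genes 0% were called in IP, 1692 had an unadjusted p below 0.05, and DESeq2 called 302 genes but no member. The members with the smallest p there were Dlx6 (0.25), Actn2 (0.33) and Cnr1 (-0.12), none of which passed. The effect in IP minus that in input was above 0 for all 31 members, with a median of 0.17, and was called for none of them (0% of 15862 genes, 1266 with an unadjusted p below 0.05). Kcnab1 (0.40), Dlx6 (0.28) and Actn2 (0.35) had the smallest p. The median was 0.05 without MPTP replicate 3 and 0.29 without MPTP replicate 1.

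No member passed the test for SAPAP3 knockout either, while all 31 estimates were below 0 in both fractions. In input the median was -0.28 and 6 members had an unadjusted p below 0.05, with 0.00641% of 15591 genes called and 869 at an unadjusted p below 0.05. The smallest p-values were those of Sh3rf2 (-0.56 ± 0.143), Ryr1 (-0.47 ± 0.153) and Rarb (-0.42 ± 0.148), each at an edgeR adjusted p of 0.735. Sh3rf2 was at 49.2, 50.8, 47.0 and 49.1 CPM in knockout and 95.0, 54.0, 70.7 and 69.4 CPM in wild type, which did not overlap. Foxp1, Arpp21, Rasgrp2 and Kcnab1 were the other 4 members without overlap, against 1.93% of 16607 genes. Without wild-type replicate 1 the median was -0.09, and without any of the other 7 mice it was between -0.35 and -0.25. In IP the median was -0.26, 5 members had an unadjusted p below 0.05 and 0.0263% of 15198 genes were called, with 399 at an unadjusted p below 0.05. Sh3rf2 (-0.56 ± 0.128) was the one member without overlap there, against 0.644% of genes, at 48.3, 38.5, 41.8 and 36.4 CPM in knockout and 71.0, 49.1, 64.6 and 56.7 CPM in wild type. Its edgeR adjusted p was 0.999, as were those of Rasgrp2 (-0.42) and Dlx6 (-0.37). Without wild-type replicate 1 the median in IP was -0.13. Beside these values, 9 of 10 cortical excitatory markers had estimates above 0 in input, with a median of 0.46, as had all 12 pan-neuronal markers (0.15). All 11 microglial (-0.24) and all 11 endothelial and mural markers (-0.22) had estimates below 0 there. None of these was called, and their part was not tested. DESeq2 called no member in either fraction. The effect in IP minus that in input had a median of 0.02, or -0.04 without wild-type replicate 1, and was called for no member (0% of 16059 genes, 203 with an unadjusted p below 0.05). Rarb (0.15), Syndig1l (0.17) and Ryr1 (0.15) had the smallest p.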

How the data were processed

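RNA-seq of input and IP RNA was made from stranded, ribosomal RNA-depleted libraries, per the labels' protocols. STAR, HTSeq and mm10 are named in the submitters' processing notes, with versions not given in the sources used here. The authors deposited whole-number read counts per gene, which were tested, and FPKM values, which were used to compare levels between genes. The deposited FPKM equal counts over the column total and 1 length per gene. CPM levels were computed with TMM scaling over all 48 libraries.

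The members and lists were chosen with earlier results of these data known. Members are named by role and by smallest p within each comparison. Tests used edgeR 4.0.16 (quasi-likelihood, TMM, filterByExpr with a minimum count of 10, R 4.3.3) with Benjamini-Hochberg adjustment over all genes and a threshold of 0.05. The SE is the log2 fold change over the root of F. DESeq2 1.42.0, other scalings, no filter, a replicate block and leaving out each replicate were alternatives. Scripts were tested on simulated data. Titles name animals, but nothing says how litters or cages fell, and for 1 MPTP replicate the input and IP titles name different animals; p-values measure the spread between these samples. The 72 pairs of libraries within a group differed by more than counting noise (chi-square per degree of freedom 3.99 to 91.4). IP and input of 1 animal deviated together in the SAPAP3 (r of 0.2 to 0.469) and R6/2 (0.339 to 0.597) experiments and weakly in the MPTP experiment (0.0502 to 0.327, own input closest for 5 of 8 IPs). Mice with the same replicate number in the 2 arms had r of -0.292 to 0.0908 in the MPTP and R6/2 experiments. In the SAPAP3 experiment r was -0.0627 to 0.342 in input and 0.0169 to 0.266 in IP. Some of these SAPAP3 values lay within the range for IP and input of 1 animal. Intervals of counting error are not given, since every member had at least 179 counts per library. Promoter windows and build come from RefSeq.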

Additional observations from a re-analysis of the deposited data

Results flagged for a closer look

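In a screen of the 31 members over 12 groups, 372 sets of 4 libraries, 32 sets held a library whose gap to the nearest other was above Dixon's critical share of the range; chance marks about 1 in 20. Of the 32, 11 were the wild-type replicate 1 input, which was the highest each time. In it Ppp1r1b stood at 1220 CPM, Pde1b at 1740, Adcy5 at 1830, Rasgrp2 at 178, Gng7 at 711, Rasd2 at 847, Scn4b at 1700, Hpca at 1190, Tmem158 at 192, Syndig1l at 205 and Spata2l at 70.3 CPM. The other wild-type inputs reached at most 1150 CPM for Adcy5, 1060 for Pde1b and 120 for Syndig1l. The IP of the same mouse stood out for Gng7 (242 CPM) and Rasd2 (441 CPM). The SAPAP3 knockout replicate 1 IP was the highest of its group for Ppp1r1b (616 CPM), Rarb (75.5 CPM), Rasd2 (359 CPM) and Hpca (510 CPM).

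The hM4Di replicate 3 input was the lowest of its group for Rasgrp2 (37.5 CPM), Gng7 (387 CPM), Syndig1l (47.1 CPM) and Kcnab1 (252 CPM). Single genes stood out in the hM4Di IPs of replicate 1 (Ppp1r1b, 213 CPM) and 2 (Cnr1, 132 CPM), and in the hM4Di inputs of replicate 2 (Ano3, 394 CPM) and 4 (Bcl11b, 310 CPM). In R6/2 with control cargo they were Dlx6 in the replicate 1 input (13.7 CPM), Kcnab1 in the replicate 2 input (247 CPM) and Tmem158 in the replicate 4 IP (75.3 CPM). In the MPTP experiment they were Foxp1 in the vehicle replicate 2 IP (282 CPM), Rarb in the vehicle replicate 1 IP (122 CPM), Spata2l in the vehicle replicate 2 input (66.5 CPM) and Tmem158 in the MPTP replicate 1 input (206 CPM).

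The effect of hM4Di differed between IP and input by edgeR's interaction test for Foxp1 (-0.49), Foxp2 (-0.42), Hpca (-0.54) and Kcnab1 (-0.56), on the log2 scale. For that test 1.2% of 15880 genes were called lower. The difference between R6/2 and the other control groups differed between IP and input for Meis2 (0.47) and Cnr1 (0.60). There 4.58% of 16318 genes were called higher, a share near that of the members.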

How the results depend on the processing

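The counts of 28 and 23 members lower in R6/2 stayed within 1.5 times under each scaling, filter, tool and left-out replicate tried. With DESeq2 302 genes were called for MPTP in IP, 68 genes and 5 members in input and 55 genes for the difference of the effect between the fractions, where edgeR called 0. DESeq2 called 8 genes for SAPAP3 knockout in IP and 8 in input (4 and 1 with edgeR) and 1 for the difference of its effect (0 with edgeR). For hM4Di it called 26 members and 3491 genes in IP (17 and 2227 with edgeR), 53 genes in input (3 with edgeR), and 20 members and 1154 genes for the difference between fractions (4 and 492). For the IP minus input difference in R6/2 it called 4 members in place of 2. Without the low-count filter 1 gene was called for MPTP input and 5 for hM4Di input. For the hM4Di difference between fractions, relative log expression scaling gave 11 and upper-quartile scaling 14 members in place of 4. Upper-quartile scaling gave 4 in place of 8 for wild type against vehicle in IP. The share of all genes called is not given for these scalings or for the 4 members with DESeq2. These counts therefore show only how far the number of members moved. The share of called genes that were lower moved from 38.3% to 49.4% under upper-quartile scaling for hM4Di in IP.

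With a replicate block by number 1 gene was called for MPTP input, 2 for SAPAP3 IP and 6 for hM4Di input. With the animal as a replicate block 29 members and 2761 genes were called for the hM4Di difference between fractions, and 13 members and 4159 genes (2427 without the block) for the IP minus input difference in R6/2; no other count of members moved by over 1.5 times. Leaving out 1 replicate in turn gave 5 to 28 members and 892 to 2130 genes for hM4Di in IP, 0 to 14 members and 91 to 433 genes for its difference between fractions, 2 to 15 members and 1816 to 4000 genes for wild type against vehicle in IP, and 1 to 4 members and 1461 to 3019 genes for the IP minus input difference. It gave 0 to 65 genes for MPTP IP, 0 to 2 for MPTP input, 0 to 3 for SAPAP3 IP and 0 to 1 for SAPAP3 input. Against wild type without replicate 1, a choice made after seeing the data, Rarb (0.036), Gnal (0.10) and Tmem158 (0.18) reversed in R6/2 input. The cause was not tested for any of these. Genotype and experiment cannot be told apart in the R6/2 comparisons.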
